A study of Canis lupus familiaris with 6 samples.

Results

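CMT-U27 and CMT-U309 are canine mammary tumor cell lines of different histology, the first from a simple carcinoma and the second from a spindle cell mammary tumor, and the expression of their genes was compared directly. The comparison used 4 of the 6 arrays of the study, the 2 of each line, chosen by the cell line named in the sample labels. Each array carried both dyes, so these 4 arrays held 8 of the 12 channels. In each line 1 RNA came from cells grown alone (monoculture) and 1 from cells grown with myeloid-derived suppressor cells (MDSCs), immature myeloid cells sorted from healthy dogs. The MDSCs were layered in an insert above the tumor cells, so that medium but not cells was shared. The sample labels give at least 72 h of co-culture, and the paper's methods a shorter time. Both lines were kept in RPMI-1640 with fetal bovine serum. On replicate 1 of a line the co-culture RNA was labelled with Cy5 and the monoculture RNA with Cy3, and on replicate 2 the dyes were exchanged. Each line therefore gave 4 RNA measurements of 2 RNAs, and nothing in the labels shows a second culture of either. A line is a single culture-adapted tumor, so a difference between these lines is not a difference between the tumor types. Array slide and line cannot be told apart, because neither line was hybridised beside the other.

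Carcinoma cells of the mammary gland keep features of the epithelium they come from: a cytoskeleton of keratins, E-cadherin at adherens junctions, and claudins and desmosomal proteins that seal and fasten neighbours. Mesenchymal cells such as fibroblasts carry vimentin in place of keratins, use N-cadherin and cadherin 11, and secrete collagens, fibronectin and proteoglycans. Spindle cell tumors of the mammary gland are named for elongated cells with the shape of the second kind, and myoepithelial cells, which contract around the ducts, share traits of both.

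The array holds probes of 60 bases. The sequences below are those of probes of epithelial and mesenchymal genes that differed between the lines. Those of EPCAM, CDH2 and COL1A1 are not the brightest probes of their genes, at which the values in the later paragraphs were read. They are printed as deposited, with coordinates on canFam2, and all letters are in lower case because no part of a probe is singled out. The 2 probes of KRT19, a luminal keratin, come from the same bases of chromosome 9 and are reverse complements of each other over all 60 bases, so that they read opposite strands.
KRT19 (chr9:24564148-24564207): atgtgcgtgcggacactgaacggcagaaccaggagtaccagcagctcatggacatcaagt
KRT19, opposite strand (chr9:24564148-24564207): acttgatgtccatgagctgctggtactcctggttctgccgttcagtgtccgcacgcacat
EPCAM (chr10:52621662-52623469): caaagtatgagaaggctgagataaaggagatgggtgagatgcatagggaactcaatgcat
CDH2 (chr7:63919679-63919738): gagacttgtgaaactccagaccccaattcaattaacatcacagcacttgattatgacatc
COL1A1 (chr9:29513653-29513712): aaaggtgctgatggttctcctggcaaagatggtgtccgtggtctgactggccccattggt
The difference, CMT-U27 minus CMT-U309 on the log2 scale, was 11.33 on the first KRT19 probe and 3.92 on the opposite strand. It was 8.08 on this EPCAM probe and -6.77 on this COL1A1 probe. The CDH2 probe was not well above background in CMT-U27 and was at least 5.51-fold higher in CMT-U309.

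All levels are log2 processed signals after every channel was scaled to 1 common median, which was 6.62. Levels of a gene are listed in the order monoculture Cy3, monoculture Cy5, co-culture Cy3 and co-culture Cy5, at its brightest probe unless another is named. A spot was taken as measured where the scanner software flagged it well above background. Between 58.4% and 77.0% of spots were so flagged in the channels of CMT-U27 and between 53.0% and 81.0% in those of CMT-U309, and no spot was saturated. A gene was called when limma gave a Benjamini-Hochberg adjusted p under 0.05 and the lines differed by over 2-fold. The p-values measure the spread between the line difference in monoculture and that in co-culture, not between separate cultures. For each probe limma drew that spread toward the spread of all probes, which supplied most of the 16.1 degrees of freedom. A small SE or p-value of 1 gene therefore rests mostly on the other probes. Of the tested probes, 3137 were well above background in every channel of CMT-U27 but not of CMT-U309 and 1551 the reverse. Such probes entered the test through the line in which they were high, so counts and medians over a gene list describe its measured members and are no test of the list.

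The lines differed across a large part of the array. Of 25981 probes tested, 5729 (22.1%) were called higher in CMT-U27 and 3385 (13.0%) higher in CMT-U309, and of 9727 genes 2202 (22.6%) and 1276 (13.1%). The counts of a gene list stand against these shares of all genes, of which 6249 were not called. The excess on the CMT-U27 side moved with the scaling: the median difference of all tested probes was 0.25, and 62.9% of called probes were higher in CMT-U27, against 45.8% to 54.2% with other scalings. Differences are printed as measured, so a gene at the median of all genes stands at 0.25 and not at 0. Both dyes of 1 RNA differed by a median of 0.20 to 0.23 and by over 2-fold for 1.28% to 5.88% of probes, while the same dye and condition of the 2 lines differed by a median of 0.66 to 0.76 and by over 2-fold for 33.2% to 39.2%. The line difference was thus larger than the technical spread between dyes, which is not that between cultures. Of all tested probes, 20310 (78.2%) differed the same way in all 4 matched comparisons. Where channels of a gene are said below not to overlap, the channels are dye repeats of 2 RNAs a line. The share of all genes without overlap was not counted, and for genes named by the size of their difference no overlap follows from that choice.

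The line difference held in both culture conditions. In monoculture, where each line had 1 RNA and no test was possible, 4965 probes (19.1%) were over 2-fold higher in CMT-U27 in both dyes and 2825 (10.9%) higher in CMT-U309. In co-culture these were 4728 (18.2%) and 2916 (11.2%). The larger side depended on the scaling, since with no scaling the monoculture counts were 2252 and 3243. Of the monoculture probes higher in CMT-U27, 4124 (15.9% of all tested) were higher in co-culture too, 83.1% of the monoculture probes and 87.2% of those of co-culture. On the CMT-U309 side 2571 (9.90%) were shared, 91.0% and 88.2%. No probe over 2-fold in both dyes turned direction between the conditions.

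**Figure D1:**
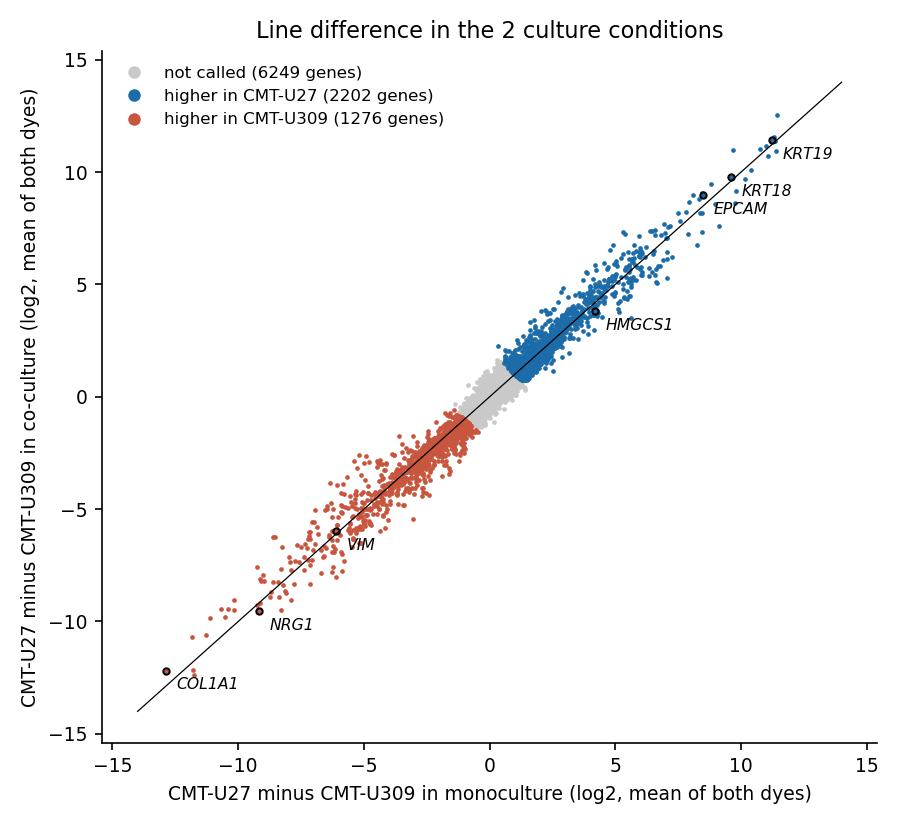
Each point is 1 of 9727 genes at its brightest probe, with the log2 difference of CMT-U27 minus CMT-U309 in monoculture on the horizontal axis and in co-culture on the vertical axis, each the mean of both dyes. The 2202 genes called higher in CMT-U27 are blue, the 1276 called higher in CMT-U309 red, and the points lie along the line of equal difference.

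Keratins of simple epithelium were high in CMT-U27. KRT18, which pairs with KRT8 in luminal cells, measured 17.03, 16.75, 16.97 and 17.04 in CMT-U27 and 7.62, 6.94, 7.46 and 7.03 in CMT-U309, a difference of 9.69 ± 0.10 (SE, adjusted p = 7.6e-20). KRT8 measured 17.50, 17.44, 17.87 and 18.02 against 11.02, 10.94, 11.59 and 11.60, a difference of 6.42 ± 0.09. KRT19 measured 16.15, 16.49, 16.82 and 16.79 against 4.86, 5.30, 5.19 and 5.60, a difference of 11.33 ± 0.11, and was well above background in 3 of 4 CMT-U309 channels. In all 3 genes every CMT-U27 channel stood above every CMT-U309 channel. KRT8 was also above the common median in every CMT-U309 channel. The KRT8 probe was named by its description in the files, which is cytokeratin 8.

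All 7 keratins of the epithelial list that could be tested, out of 20, were called higher in CMT-U27 and none higher in CMT-U309, with a median difference of 7.14, where KRT13 stands at its lower bound, against 0.25 over all genes. They included KRT7, a keratin of glandular epithelium, at 7.14, and KRT15, a keratin of basal epithelium, at 8.55. A second KRT15 probe stood at -0.62 and was not called. KRT13, a keratin of stratified epithelium, was not well above background in any CMT-U309 channel and was at least 119-fold higher in CMT-U27. Of the other 13 keratins, 11, among them KRT20 and KRT10, did not pass the filter on background and 2 had no probe with that name.

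Most genes of the proteins that hold epithelial sheets together were also higher in CMT-U27. EPCAM, an adhesion molecule of epithelial surfaces, measured 16.26, 15.96, 15.91 and 15.69 in CMT-U27 and 7.88, 7.34, 6.83 and 6.80 in CMT-U309, a difference of 8.74 ± 0.12, and its 3 tested probes gave 8.08 to 8.74. CDH1, E-cadherin, measured 8.19, 8.13, 8.53 and 8.05 against 4.42, 4.30, 3.90 and 4.01, a difference of 4.07 ± 0.23 (adjusted p = 7.7e-11), with 2 of 4 CMT-U309 channels well above background. Neither gene overlapped between the lines.

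Of 47 junction and polarity genes tested, 40 were called higher in CMT-U27, 1 higher in CMT-U309 and 6 were not called. The list median was 3.55, and 3.48 with members at their lower bounds. DSG3, a cadherin of desmosomes, was at least 139-fold higher in CMT-U27. LSR, which seals the corners where 3 cells meet, differed by 8.52, and EHF, an epithelial transcription factor of the ETS family, by 8.32, with 3 and 2 of the 4 CMT-U309 channels well above background. The exception was MUC1, a membrane mucin of glandular cells, at -4.53. With normexp background correction, loess and Aquantile normalization together in place of the scanner's own processing (hereafter the normexp processing), 29 of the 47 were called higher in CMT-U27 and 2 higher in CMT-U309.

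**Figure D2:**
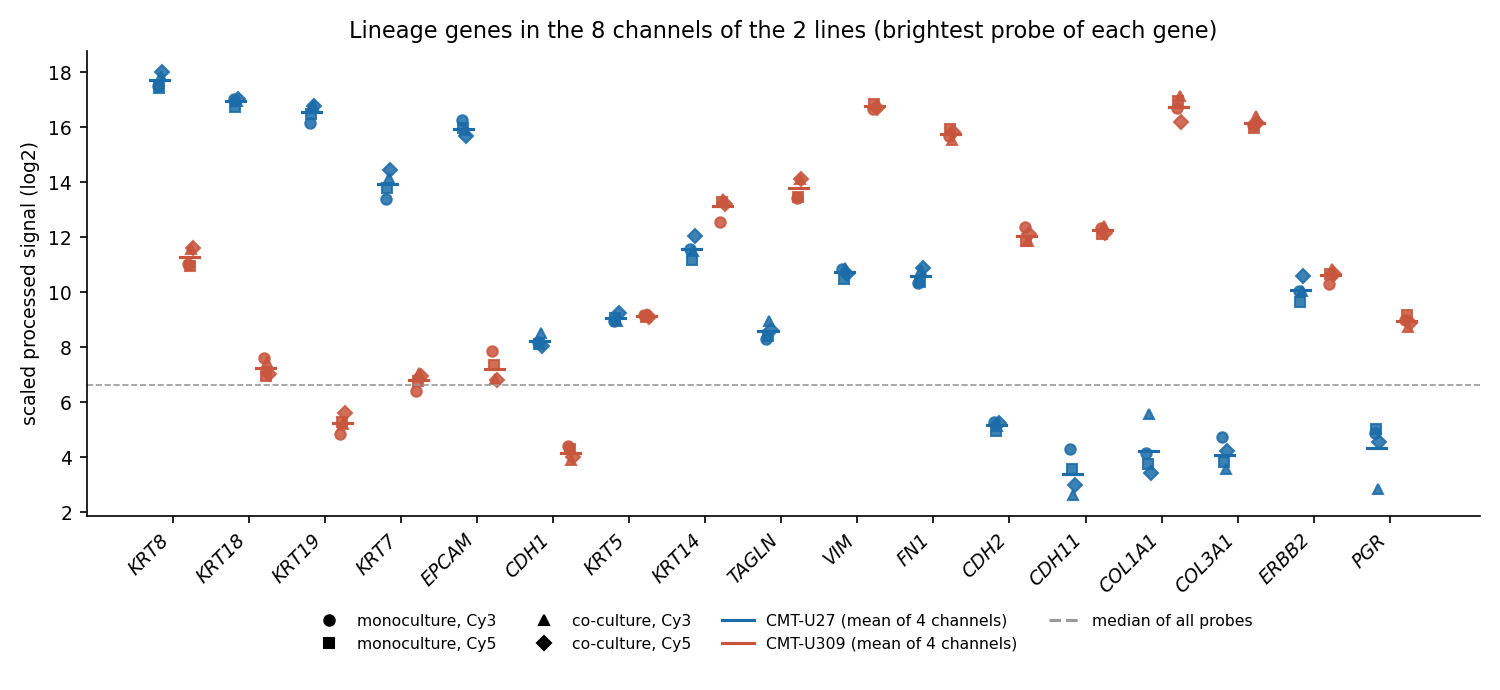
Scaled processed signal (log2) of 17 lineage genes in the 8 channels, with blue for CMT-U27 and red for CMT-U309, a symbol for each culture condition and dye, a bar at the mean of the 4 channels, and a dashed line at the common median of all probes, 6.62. KRT8, KRT18, KRT19, KRT7, EPCAM and CDH1 stand higher in CMT-U27 and KRT14, TAGLN, VIM, FN1, the cadherins CDH2 and CDH11, the collagens and PGR higher in CMT-U309, while the channels of KRT5 and ERBB2 overlap.

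Most mesenchymal genes went the other way. VIM, vimentin, measured 10.85, 10.48, 10.90 and 10.68 in CMT-U27 and 16.67, 16.86, 16.82 and 16.71 in CMT-U309, a difference of -6.04 ± 0.09 (adjusted p = 3.3e-18). CDH2, N-cadherin, measured 5.29, 4.94, 5.15 and 5.24 against 12.39, 11.85, 11.88 and 12.12, a difference of -6.90 ± 0.12, with 2 of 4 CMT-U27 channels well above background. CDH11, a cadherin of osteoblasts and fibroblasts, measured 4.30, 3.59, 2.63 and 2.98 against 12.34, 12.13, 12.42 and 12.15, and 1 CMT-U27 channel was well above background. All CMT-U309 channels were higher than all CMT-U27 channels in these 3 genes. VIM was well above background in every CMT-U27 channel, whereas the cadherins were near the floor there.

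Of 46 mesenchymal genes tested, 34 were called higher in CMT-U309, 2 higher in CMT-U27 and 10 were not called, and the list median was -2.43. PRRX1, a homeobox factor of limb and skull mesenchyme, differed by -9.15 and EMP3, a small membrane protein, by -7.06. FN1, fibronectin, measured 10.33, 10.38, 10.83 and 10.88 in CMT-U27 and 15.70, 15.96, 15.55 and 15.85 in CMT-U309, and its 5 tested probes gave -5.89 to -4.75. Some transcription factors that repress E-cadherin were among the members: SNAI2 stood at -6.32, ZEB1 at -5.86 and SNAI1 at -1.89. They were named here after their values were seen and are not the full set of such factors. The 2 members higher in CMT-U27 were NT5E, a cell-surface nucleotidase, at 3.84, and PLAT, tissue plasminogen activator, at 1.85.

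Collagens and the proteins that process them were nearly all on the CMT-U309 side. Of 33 tested, 30 were called higher in CMT-U309, none higher in CMT-U27 and 3 were not called, with a median of -4.11, and 28 were called higher in CMT-U309 under the normexp processing. COL1A1, a chain of type I collagen, measured 4.15, 3.76, 5.56 and 3.43 in CMT-U27 and 16.70, 16.97, 17.16 and 16.19 in CMT-U309 at its brightest probe, a difference of -12.53 ± 0.14, and its 4 probes ranged from -12.53 to -6.23. COL3A1, the chain of type III collagen, differed by -12.07 and DCN, the proteoglycan decorin that binds collagen fibrils, by -11.96. Each of these probes was well above background in 1 of 4 CMT-U27 channels. All 3 genes were below the common median in every CMT-U27 channel.

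Of the basement membrane chains named here, all but LAMB3 were higher in CMT-U309. LAMA4, a laminin chain of mesenchymal and vascular basement membranes, measured 2.84, 3.48, 3.23 and 4.58 in CMT-U27, none of them well above background, and 15.10, 14.91, 14.62 and 14.55 in CMT-U309, and was at least 1539-fold higher in CMT-U309. COL4A1, of type IV collagen, was at least 485-fold higher there, COL15A1 at least 372-fold and LAMA2 at least 76.6-fold. Of other matrix genes, LUM, lumican, was at least 336-fold and MFAP5, a microfibril protein, at least 431-fold higher in CMT-U309. LAMB3, a chain of the laminin that anchors epithelium, was at least 43.1-fold higher in CMT-U27, although a second probe of it gave 1.16. Of the 20 integrins and laminins tested, 9 were called higher in CMT-U309, 2 higher in CMT-U27 and 9 were not called. The fibronectin receptor chain ITGA5 differed by -8.33 and the collagen receptor chain ITGA11 by -6.62, while of the chains that pair with ITGAV, ITGB6 was at least 25.0-fold higher in CMT-U27 and ITGB8 stood at 2.72.

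Basal and myoepithelial genes did not sort to 1 line. Of 21 tested, 7 were called higher in CMT-U27, 9 higher in CMT-U309 and 5 were not called, with a median of -0.87. The shares over all genes were 22.6% higher in CMT-U27 and 13.1% higher in CMT-U309. With other scalings 6 of the list were called higher in CMT-U27 and 11 higher in CMT-U309. Under the normexp processing these were 4 and 11. KRT14, a basal keratin, measured 11.59, 11.18, 11.51 and 12.06 in CMT-U27 and 12.57, 13.29, 13.40 and 13.22 in CMT-U309, a difference of -1.53 ± 0.10 (adjusted p = 4.9e-10), but its other probes gave -0.82 and 0.13 and were not called. KRT5, its partner, measured 8.95, 9.07, 8.97 and 9.26 against 9.16, 9.12, 9.22 and 9.10, a difference of -0.08 ± 0.12 (adjusted p = 0.521) with overlapping channels. The other 3 probes of KRT5 gave 1.11, 1.64 and 5.98 and were all called higher in CMT-U27, so the gene had no single answer on this array. The files name these probes KRT71 and describe them as keratin 5. A further probe that the files name KRT42 and describe as keratin 14 was at least 500-fold higher in CMT-U27, and KRT17 did not pass the filter, with 2 channels of CMT-U27 and 3 of CMT-U309 well above background.

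Contractile genes of the basal list went both ways. TAGLN, transgelin of the smooth muscle cytoskeleton, measured 8.30, 8.41, 8.96 and 8.64 in CMT-U27 and 13.44, 13.48, 14.12 and 14.12 in CMT-U309, a difference of -5.21 ± 0.11. CALD1, caldesmon, which restrains actomyosin, also differed by -5.21. MYLK, the myosin light chain kinase, and SMTN, smoothelin, were called higher in CMT-U27 at 3.09 and 1.09 and were named after their values were seen. Also on the CMT-U27 side were LAMB3 and SFN, a 14-3-3 protein of squamous and basal epithelium, which differed by 5.70. Neither TAGLN nor CALD1 overlapped between the lines.

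Muscle genes were called more often on the CMT-U309 side. Of 22 tested, 10 were called higher in CMT-U309 and 1, the fast troponin TNNI2 at 3.42, higher in CMT-U27. TPM2, a tropomyosin, measured 8.35, 8.20, 7.74 and 7.48 in CMT-U27 and 16.46, 16.40, 16.16 and 16.36 in CMT-U309, a difference of -8.40 ± 0.12, and 5 probes of it ranged from -8.93 to -0.30. FHL1, a LIM-domain protein of muscle, differed by -6.43 and CNN2, a calponin, by -4.68. The probes of ACTA1, skeletal muscle actin, disagreed in direction: 11 of them ran from -6.83 to 1.64, and their median was 1.28. Sequences of the actins are close to each other, so that a probe of one may bind another.

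Some of the largest differences lay outside those lists. Among genes well above background in all 8 channels, CST6, a secreted cystatin, differed by 8.27, PI3, the elastase inhibitor elafin, by 7.32, SLC1A1, a glutamate transporter, by 7.04, EPDR1, an ependymin-related protein, by 6.88, and FXYD6, a regulator of the sodium pump, by 6.81. SLPI, an antiprotease of secretory epithelium related to elafin, measured 16.35, 16.47, 16.52 and 16.57 in CMT-U27 and was not well above background in CMT-U309, which made it at least 6190-fold higher. BPI, a bactericidal protein, was at least 1024-fold higher in CMT-U27, the receptor GPR110 at least 479-fold and the fructose bisphosphatase FBP2 at least 342-fold. SLPI, PI3 and BPI belong to antimicrobial secretions of epithelia and neutrophils.

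On the other side RBP4, the carrier of retinol, measured 6.97, 6.79, 6.53 and 6.49 in CMT-U27 and 16.19, 16.10, 15.76 and 15.82 in CMT-U309, a difference of -9.27 ± 0.11. SERPINF1, a secreted antiangiogenic serpin, differed by -8.41, COL6A1 by -8.32, IGFBP2, which binds insulin-like growth factors, by -8.04, the endocytic receptor LRP1 by -7.25, GPNMB, a membrane glycoprotein, by -6.76, and the protease PRSS23 by -6.64. CA2, carbonic anhydrase 2, was at least 358-fold higher in CMT-U309. Each of these genes had no overlap of channels between the lines, which follows from their choice as the largest differences.

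Of the 3 receptors used to class mammary tumors, none was called higher in CMT-U27. ESR1, the estrogen receptor, was well above background in no channel of either line and was not tested. PGR, the progesterone receptor, measured 4.88, 5.03, 2.85 and 4.55 in CMT-U27 and 8.99, 9.19, 8.73 and 8.88 in CMT-U309, a difference of -4.62 ± 0.22 (adjusted p = 9.1e-12), with 2 CMT-U27 channels well above background. ERBB2, the HER2 receptor, measured 10.06, 9.66, 10.05 and 10.57 against 10.31, 10.68, 10.84 and 10.68, and its difference of -0.54 ± 0.11 did not reach 2-fold (adjusted p = 0.00039). PGR stood apart between the lines, and ERBB2 overlapped.

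Of 23 luminal and mammary regulators tested, 10 were called higher in CMT-U27 and 3 higher in CMT-U309, with a median of 0.99. Shares over all genes were 22.6% and 13.1%, so the CMT-U309 count was near that of all genes. With other scalings 9 to 11 of the list were called higher in CMT-U27 and 3 higher in CMT-U309. Under the normexp processing these were 6 and 1. AGR2, a secretory protein of luminal cells, was at least 19.2-fold higher in CMT-U27 and ELF5, a transcription factor of milk-forming progenitors, at least 22-fold. KIT, the stem cell factor receptor of luminal progenitors, differed by 4.66, with 2 CMT-U309 channels well above background.

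Of 37 growth factor receptors and ligands tested, 17 were called higher in CMT-U309, 7 higher in CMT-U27 and 13 were not called. NRG1, the ligand of ERBB3, measured 12.68, 12.43, 12.74 and 12.52 in CMT-U309 and 2.82, 3.94, 3.03 and 3.16 in CMT-U27, none of these well above background, and was at least 317-fold higher in CMT-U309. HGF, the ligand of MET, was at least 13-fold higher there and ANGPT1, a ligand of the endothelial receptor TEK, at least 7.31-fold. ERBB3 and MET stood at 2.98 and 2.09 and were called higher in CMT-U27, the line opposite to that of their ligands, and were named after their values were seen.

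Of 35 TGF-beta and BMP genes tested, 13 were called higher in CMT-U309 and 6 higher in CMT-U27. BMP4 measured 10.45, 10.65, 10.55 and 10.99 in CMT-U309 and was at least 81.8-fold higher there. INHBA, the activin chain, measured 6.22, 6.29, 7.29 and 7.12 in CMT-U27 against 12.57, 12.52, 12.52 and 12.60, a difference of -5.82 ± 0.16. TGFB3 differed by -4.03, and FST, which binds activin, was at least 3.65-fold higher in CMT-U309. Of 26 Wnt genes tested, 7 were called higher in CMT-U309, 3 higher in CMT-U27 (1 or 2 with other scalings) and 16 were not called. Over all genes 13.1% were called higher in CMT-U309 and 22.6% higher in CMT-U27. The Wnt median of 0.11 turned to between -0.19 and -0.05 with other scalings and the normexp processing. WNT7A was at least 14.3-fold and RSPO3, an enhancer of Wnt signals, at least 3.76-fold higher in CMT-U309, where LEF1, a nuclear effector of the pathway, differed by -4.31 and DKK3, a Dickkopf family member, by -3.69.

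MHC class II genes were high in CMT-U27. CD74, the invariant chain that escorts class II molecules, measured 12.04, 12.37, 14.26 and 14.10 in CMT-U27 and was not well above background in any CMT-U309 channel, and was at least 603-fold higher. DLA-DRA, the class II alpha chain of dogs, measured 14.90, 14.67, 15.07 and 14.87 against 3.61, 4.01, 3.70 and 3.90, a difference of 11.07 ± 0.12 with 1 CMT-U309 channel well above background, and another probe of it was at least 561-fold higher. CIITA, the activator on which class II transcription depends, measured 11.20, 11.27, 11.59 and 11.71 against 3.79, 4.32, 3.79 and 4.29, a difference of 7.39 ± 0.15. A second CIITA probe gave 2.23. These genes were high in CMT-U27 grown alone as well as beside MDSCs. The probe that the files name HLA-DQB1 was at least 526-fold higher in CMT-U27, and HLA-DMB, which helps to load peptide, differed by 5.81.

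Of 16 antigen presentation genes tested, out of 29 listed, 9 were called higher in CMT-U27, 1 higher in CMT-U309 and 6 were not called, with a median of 1.46. The exception was DLA-79, a class I gene, at -3.22. The class I genes DLA-12 and DLA-64, at 0.43 and 0.58, were not called and were named after their values were seen. Genes of 1 family share sequence, and the probes may not separate them.

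A pair of subunits of the immunoproteasome, which cuts peptides for class I, went opposite ways. PSMB9 measured 15.42, 15.43, 15.26 and 15.47 in CMT-U27 and 12.11, 11.95, 11.61 and 11.94 in CMT-U309, a difference of 3.49 ± 0.10. PSMB8 measured 3.50, 3.36, 4.41 and 3.30 against 8.27, 8.32, 8.30 and 8.61, a difference of -4.73 ± 0.24, with 1 CMT-U27 channel well above background. They belong to a list of 53 interferon-stimulated genes, of which 34 were tested. Of these, 7 were called higher in CMT-U27, 9 higher in CMT-U309 and 18 were not called, with a median of 0.02. Over all genes 22.6% were called higher in CMT-U27 and 13.1% higher in CMT-U309. STAT2, which carries type I interferon signals, differed by -4.01 and SAMD9L, an antiviral protein, by 2.75. With other scalings 5 or 6 were called higher in CMT-U27 and 10 or 11 higher in CMT-U309, and the median fell to as low as -0.28.

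The mixed list of chemokines, interleukins and inflammatory genes had calls in both directions. Of 42 tested, 15 were called higher in CMT-U27 and 13 higher in CMT-U309, beside 22.6% and 13.1% of all genes. The chemokines named here were all higher in CMT-U27. CCL28, a chemokine of mucosal epithelium, measured 12.69, 12.87, 13.03 and 13.15 in CMT-U27 and 5.63, 4.27, 4.53 and 5.22 in CMT-U309, a difference of 8.02 ± 0.13. A second CCL28 probe gave 2.52. CCL4, which draws monocytes and lymphocytes, differed by 6.15 and CXCL10, which draws T cells, by 4.52. TNFRSF11B, the decoy receptor osteoprotegerin, was at least 11.7-fold higher in CMT-U309.

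Matrix proteases and their inhibitors were called more often on the CMT-U309 side. Of 29 proteases and inhibitors tested, 15 were called higher in CMT-U309 and 6 higher in CMT-U27, with a median of -1.17. The shares over all genes were 13.1% and 22.6%. With other scalings 16 to 18 of the list were called higher in CMT-U309 and 5 or 6 higher in CMT-U27. Under the normexp processing these were 12 and 3. The collagenases differed in direction, since MMP1 was at least 9.30-fold higher in CMT-U309 and MMP13 at least 10.8-fold higher in CMT-U27. SERPINB5, the epithelial serpin maspin, differed by 4.81 and SERPINF1 by -8.41. Of 16 bone and cartilage genes tested, 8 were called higher in CMT-U309 and 3 higher in CMT-U27 (1 or 2 with other scalings). Osteoglycin, OGN, was at least 149-fold higher in CMT-U309, OMD, osteomodulin, differed by -3.10 and PTH1R, the parathyroid hormone receptor, by -3.05, while SPP1, osteopontin, was at least 4.92-fold higher in CMT-U27.

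Homeobox genes that keep positional identity gave small differences. Of 28 tested, 19 were not called, 8 were called higher in CMT-U309 and 1 higher in CMT-U27. The latter was HOXA6, just past the threshold and not called with any other scaling. Over all 9727 genes 6249 were not called, and 13.1% were called higher in CMT-U309. HOXC11, of the posterior HOXC cluster, was at least 8.02-fold higher in CMT-U309, HOXD11 differed by -2.20 and HOXB2 by -1.65. Under the normexp processing none of the 28 was called.

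**Figure D3:**
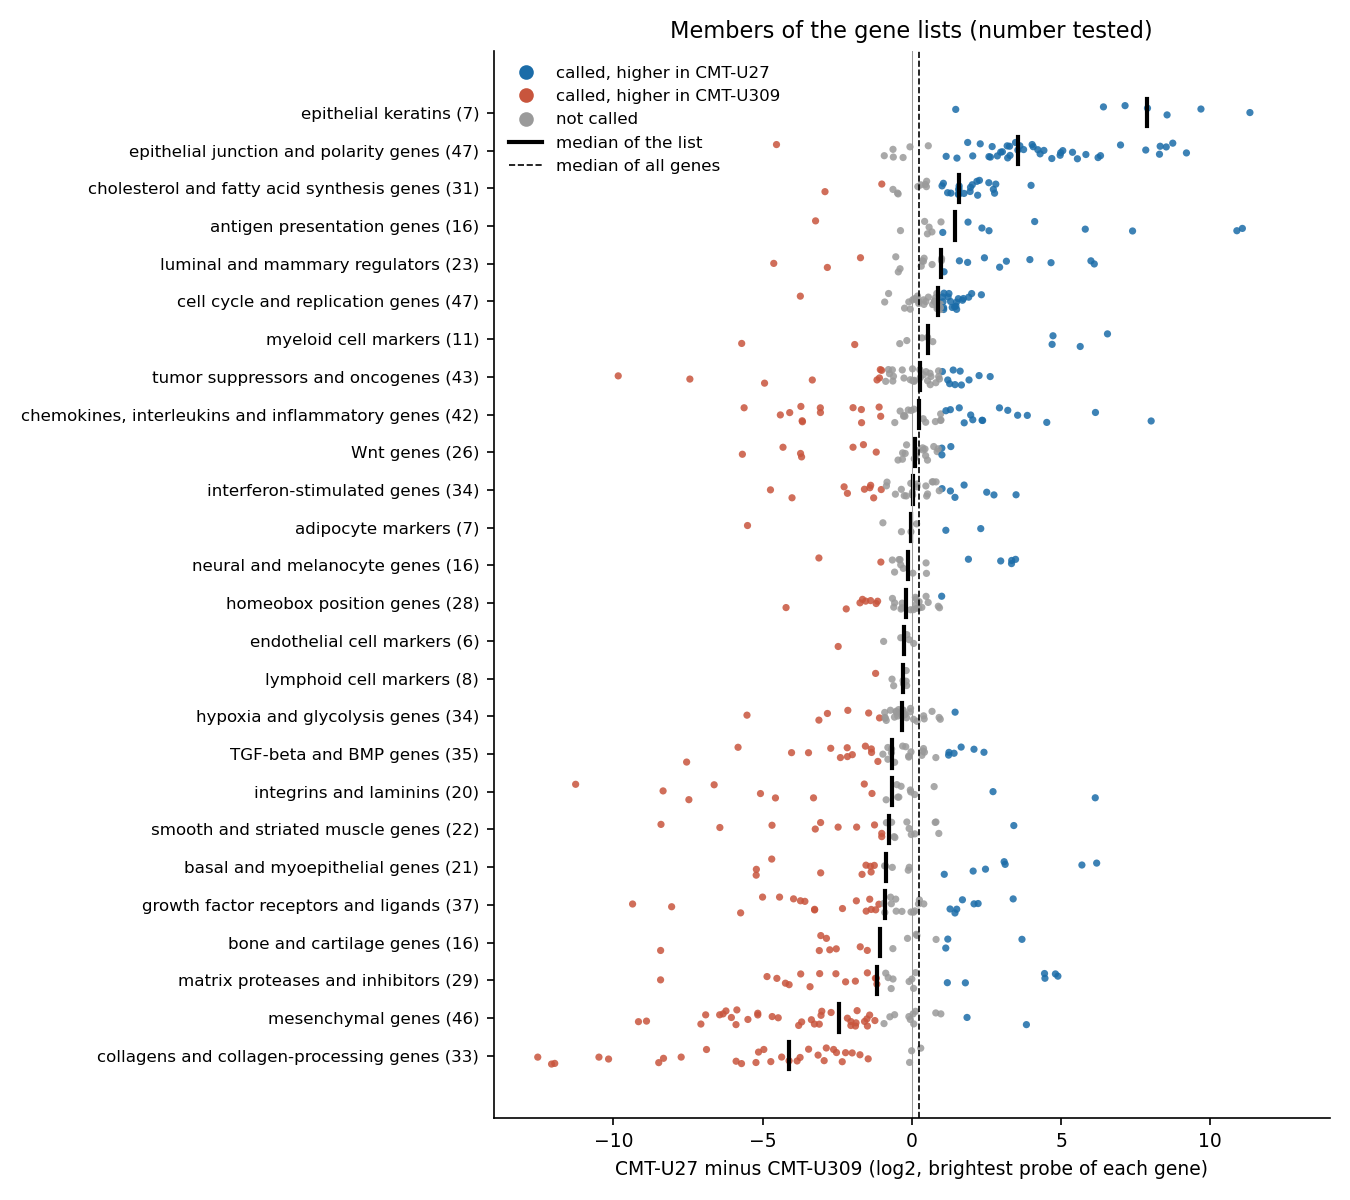
Log2 difference of CMT-U27 minus CMT-U309 at the brightest probe of each tested member of 26 gene lists, with the number tested after each name, blue and red for members called higher in CMT-U27 and CMT-U309 and grey for those not called. Black bars mark list medians, from 7.90 for the epithelial keratins (7.14 with KRT13 at its lower bound) to -4.11 for the collagens, and the dashed line the median of all genes, 0.25.

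Genes of sterol and fatty acid synthesis were higher in CMT-U27. Of 31 tested, 21 were called higher in CMT-U27 and 2 higher in CMT-U309, with a median of 1.57, and 14 to 19 were called higher in CMT-U27 with another scaling or under the normexp processing. HMGCS1, which makes the substrate of the rate-limiting step of cholesterol synthesis, measured 14.64, 14.75, 14.54 and 14.89 in CMT-U27 and 10.58, 10.43, 10.85 and 10.99 in CMT-U309, a difference of 4.0 ± 0.11. ELOVL6, a fatty acid elongase, differed by 2.81 and INSIG1, which senses sterols in the endoplasmic reticulum, by 2.77. The exceptions were ABCA1, which exports cholesterol, at -2.91, and FADS2, a desaturase, at -1.0. HMGCS1, ELOVL6 and INSIG1 did not overlap between the lines.

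Most hypoxia and glycolysis genes, like most of all genes, were not called. Among all 9727 genes 6249 were not called, 13.1% were called higher in CMT-U309 and 22.6% higher in CMT-U27. Of 34 on the list tested, 27 were not called, 6 were called higher in CMT-U309 (8 to 11 with other scalings) and 1, the carbonic anhydrase CA9 at 1.45, higher in CMT-U27. SLC16A3, which exports lactate, measured 4.15, 4.31, 4.95 and 3.74 in CMT-U27 and 9.41, 9.35, 10.43 and 10.04 in CMT-U309, a difference of -5.52 ± 0.19, with 1 CMT-U27 channel well above background. ENO2, an enolase, differed by -3.11, EGLN3, a prolyl hydroxylase of HIF, by -2.83 and BNIP3, a HIF target of mitophagy, by -2.14.

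The cell cycle genes that were called were, with 1 exception, higher in CMT-U27. Of 47 tested, 19 were called higher in CMT-U27, 1 higher in CMT-U309 and 27 were not called, and the median was 0.86, so that part of the shift was that of all genes. With other scalings 11 to 14 were called higher in CMT-U27, and 7 under the normexp processing. CCNE2, a cyclin of S phase entry, measured 11.12, 11.31, 11.24 and 11.11 in CMT-U27 and 8.67, 8.80, 9.04 and 8.95 in CMT-U309, a difference of 2.33 ± 0.12. CDC45, of the replication helicase, differed by 2.01 and the transcription factor E2F3 by 1.91. CCND2, a D-type cyclin, was the member higher in CMT-U309, at -3.73.

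Among 43 tumor suppressors and oncogenes tested, 10 were called higher in CMT-U27, 8 higher in CMT-U309 and 25 were not called. Over all genes 22.6% were called higher in CMT-U27 and 13.1% higher in CMT-U309. With other scalings 7 to 9 of the list were called higher in CMT-U27 and 9 to 11 higher in CMT-U309. Under the normexp processing these were 3 and 8. DLC1, a GTPase activating protein and tumor suppressor, was at least 290-fold higher in CMT-U309. CDKN2B, an inhibitor of CDK4 and CDK6, measured 3.90, 3.42, 3.22 and 2.82 against 8.48, 8.15, 8.10 and 8.36, a difference of -4.93 ± 0.27, with 1 CMT-U27 channel well above background. MTAP, a salvage enzyme and the neighbour of CDKN2B, differed by -3.33 at its brightest probe.

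The probes around CDKN2B were then read together. This window was chosen after the values had been seen, and its values are a description without a test. Of 18 probes within 1 Mb of the CDKN2B probe on chromosome 11, 2 (11.1%) were well above background in all 4 channels of CMT-U27, 10 (55.6%) in all 4 of CMT-U309 and 1 (5.56%) in all 4 of P114, the third line of the study, from an anaplastic carcinoma. Over the whole array these shares were 56.3%, 52.7% and 54.1%. CMT-U27 and P114 thus both had few measured probes in the window. In it 9 probes were well above background in no channel of CMT-U27, 4 in none of CMT-U309 and 11 in none of P114. MTAP at its second probe, not well above background in CMT-U27, was at least 183-fold higher in CMT-U309, and FOCAD, focadhesin, stood at -7.04 with 1 CMT-U27 channel well above background, while IFNA7, an interferon alpha gene, stood at -0.52 and was not called. Of the 10 probes tested in the window, 7 were called higher in CMT-U309 and 2 were not called. The remaining 1, without a gene name, was called higher in CMT-U27 at 2.26. Each of these called probes entered the test only through the line in which it was high. The filter thus favoured those directions, and the count of calls is no support for them. Copy number was not measured.

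**Figure D4:**
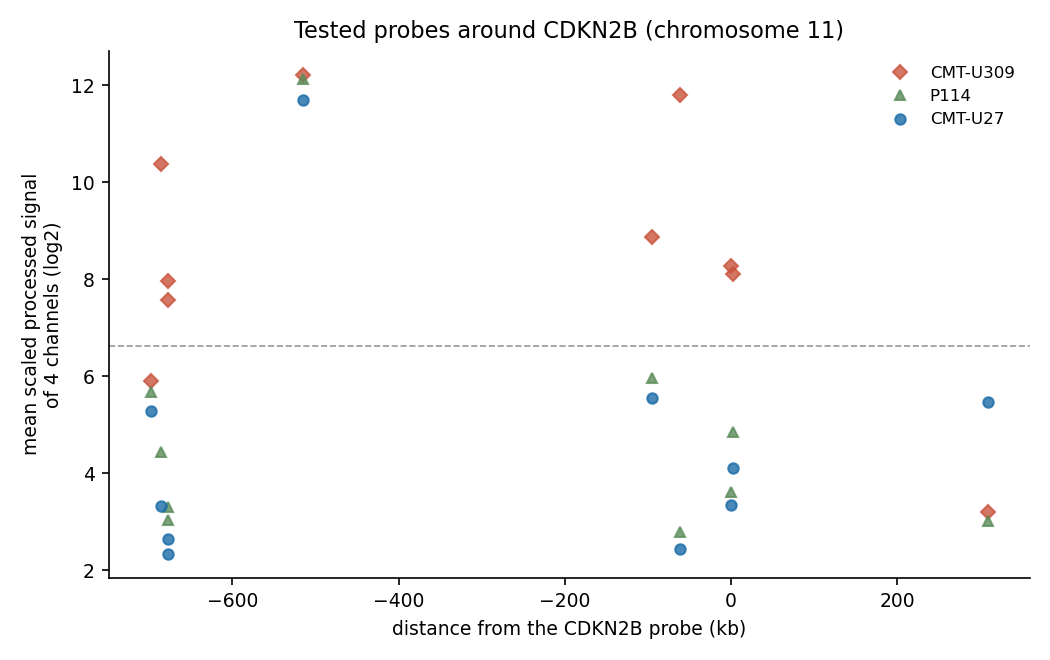
Mean scaled processed signal (log2) of the 4 channels of CMT-U27 (blue circles), CMT-U309 (red diamonds) and P114 (green triangles) at each tested probe, against its distance in kb from the CDKN2B probe, with the common median of all probes, 6.62, dashed. Most points of both CMT-U27 and P114 lie under that line and most points of CMT-U309 above it. Most of the plotted probes passed the filter only through CMT-U309, so high points of that line follow in part from the filter.

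Whole chromosomes differed less. Over 9674 genes on 39 chromosomes the median difference was highest on chromosome 26, at 0.95, with 48.7% of its 238 genes called higher in CMT-U27 and 9.66% higher in CMT-U309. Chromosomes 30, 17, 31 and 18 followed at 0.85, 0.84, 0.80 and 0.71. The lowest medians were -0.20 on chromosomes 38 and 3, and on chromosome 38 11.6% of 86 genes were called higher in CMT-U27 and 20.9% higher in CMT-U309. Chromosome 26 ranked first in each culture condition, with each dye alone, with any 1 array left out, with quantile normalization, under the normexp processing and over probes measured in all 8 channels, with medians of 0.44 to 1.06. Chromosomes 38, 3 and 36 exchanged the last place among these settings. The order was noticed in these data, carries no test, and shares its arrays with every other value here.

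**Figure D5:**
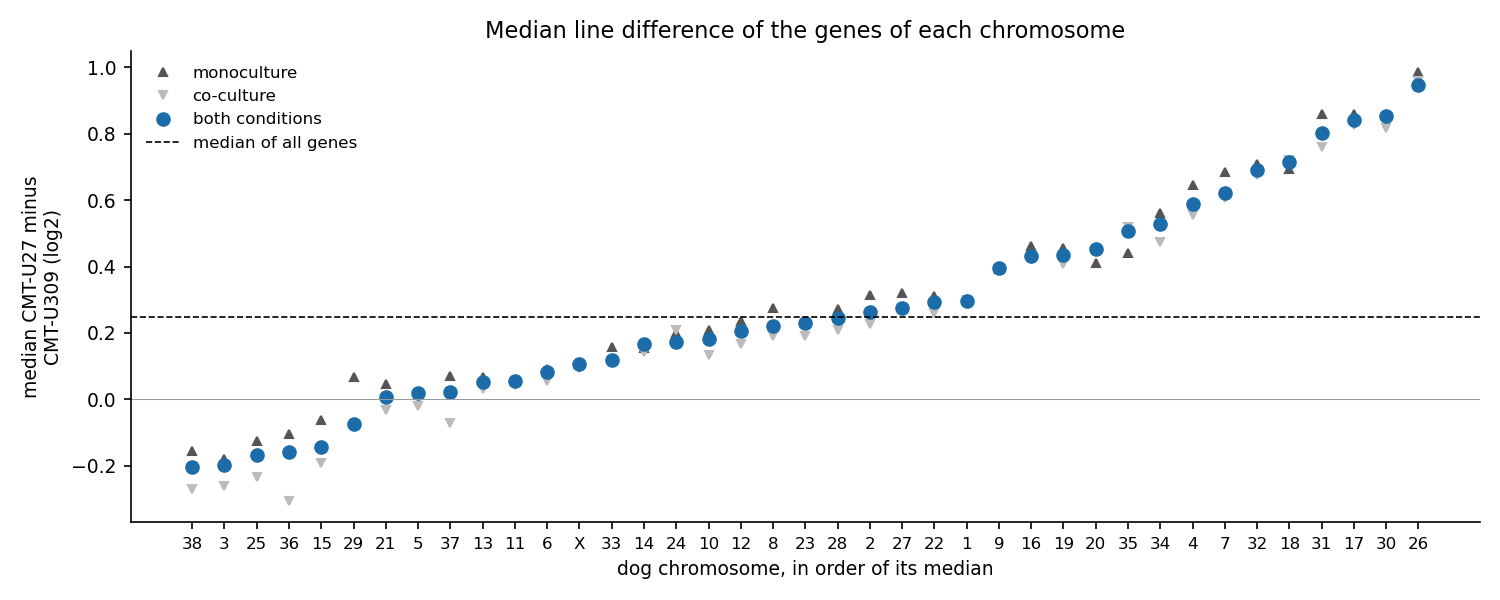
Median log2 difference of CMT-U27 minus CMT-U309 over the genes of each dog chromosome, in order of that median, for both conditions together (blue circles), monoculture (dark triangles) and co-culture (light triangles), with the median of all genes, 0.25, dashed. The medians run from -0.20 on chromosome 38 to 0.95 on chromosome 26, and the symbols of a chromosome lie close together against that range.

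Cell type markers were set against the names of the lines. All 13 tested epithelial markers of 14 were called higher in CMT-U27, with channel means of 11.6 to 12.3 against 6.07 to 6.27, and 10 of 11 mesenchymal markers were called higher in CMT-U309, with means of 13.3 to 13.4 against 6.78 to 7.10. These directions were those of the labels carcinoma and spindle cell but are no check of them. Of the epithelial markers, 13 were well above background in every CMT-U27 channel and 7 in every CMT-U309 channel. Of the mesenchymal markers these counts were 6 and 11, so some markers entered the test only through the line in which they were high. Of 6 myeloid markers with a probe, which would mark MDSCs, 4 were well above background in no channel of CMT-U27 and 2 in none of CMT-U309. The channel means were 4.41 to 5.29 and 5.37 to 6.06, and CD14, a receptor of monocytes, was called higher in CMT-U309 at -1.91. Within a longer list of 11 tested myeloid genes, the calgranulin S100A8 measured 13.11, 13.23, 14.04 and 13.99 in CMT-U27 and 7.23, 7.24, 6.50 and 7.18 in CMT-U309, S100A12 differed by 4.73, LCP1, an actin bundler of leukocytes, by 5.64 and MPO, myeloperoxidase, by -5.70. S100A8 was thus high in CMT-U27 grown alone as well as beside MDSCs. The defining genes PTPRC, ITGAM and CSF1R did not pass the filter.

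Tested markers of other tissues were read as well, beside shares over all genes of 22.6% higher in CMT-U27 and 13.1% higher in CMT-U309. Of 8 lymphoid genes 1 was called, IL2RG at -1.21, of 6 endothelial genes 1, ERG at -2.47, and of 7 adipocyte genes 3, with FABP4 at least 12.8-fold higher in CMT-U309 and PPARG and CFD at 2.31 and 1.14. Of 16 neural and melanocyte genes 5 were called higher in CMT-U27, among them MAPT at 3.48, MBP at 3.35 and MLANA at 3.34, and 2 higher in CMT-U309.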

How the data were processed

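RNA of canine mammary tumor lines was hybridised to Agilent 2-colour canine 4x44K arrays. The authors deposited scanner output of Feature Extraction (10.10.1.1 in the file headers, 10.7.3.1 in the submitters' processing notes) with a processed signal intensity per dye, background-subtracted and dye-normalized, in which low signals are replaced by surrogates. A deposited table of log ratios between conditions within a line was not used. Log2 processed signals were scaled to a common channel median, spots of a probe and both dyes of an RNA averaged, and the lines compared with limma 3.58.1 in R 4.3.3 (lmFit, eBayes with trend, culture condition as a term). Of 43603 probes, 26119 were well above background in all 4 channels of a line, of which 138 had an outlier spot and 25981 were tested. Of these, 21293 were well above background in all 8 channels and the others entered through 1 line. Probes were named from the files through RefSeq symbols (UU_Cfam_GSD_1.0), 22014 staying unnamed, and a gene is its brightest probe. A fold against a line with no channel well above background is a lower bound set at the lowest measured signal, after loess and Aquantile scaling, open to dye bias. Named genes were the 10 largest differences each way among probes measured in all 8 channels, the 8 largest bounds each way, up to 4 called members of each list, fixed lineage genes, and exceptions of lists with 5 or fewer called. The comparison, gene lists and rules were chosen with earlier results of these data known. On simulated data the test recovered 96 of 100 probes changed by 2 and 100 of 100 changed by 4 on the log2 scale, with 2 false calls. The simulated noise was normal, with limma's own estimates of spread and no variation between cultures or slides. These counts therefore check the computation and give no error rate for the real data. The number of arrays limits the precision. Some members of the lists are counted but not reported by name here.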

Additional observations from a re-analysis of the deposited data

How the results depend on the processing

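Against 5729 probes higher in CMT-U27 and 3385 higher in CMT-U309, normexp with loess and Aquantile gave 2104 and 2189, and the methods' t-test gave 2737 and 1717 after Benjamini-Hochberg and 4888 and 2890 at their unadjusted threshold. The CMT-U309 count was 5934 with no filter, 5931 with the intensity filter of the methods (over 10) and 2131 with all 8 channels above background. In monoculture, 4965 became 2252 with no scaling and 1740 after normexp, and 2825 became 4522, 4518 and 1740 under those 3 filters. In monoculture other scalings gave 2252 to 4008 and 3243 to 3530. For the calls over both conditions, other scalings gave 3903 to 4686 and 3954 to 4612. Leaving out 1 array gave 5476 to 6092 and 3274 to 3563, the lone array being assumed to vary like the others. The replicate block changed the counts to 5729 and 3384. Replicate numbers mark dye orientation, and deviations of same-numbered arrays correlated at 0.06. Of 2781 values of named probes under alternatives, 2737 kept direction and call, 41 kept direction only (20 under the methods' test, 16 under normexp) and 3 reversed, for which the cause was not tested: ACTA1 at 1.28 and KRT5 at 1.37 with the median over probes, and KRT5 at 0.059 with Cy5 alone. Of 572 list medians under alternatives 19 moved by over 0.5. The medians of 8 of 26 lists, all within 0.27 of 0 (homeobox, Wnt, interferon, chemokine, tumor suppressor, neural, endothelial and adipocyte), changed sign under at least 1. Scaling on the median of the tested probes (4572 and 4066) and the chromosome and window summaries were chosen after seeing the data. Probes near background carry surrogate signals, so their differences are bounds.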
